A study of Mus musculus with 78 samples.

Results

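The genes described are 47 mouse genes of the interferon response and of antigen presentation, taken by symbol from a fixed list of major histocompatibility complex (MHC) class I and class II genes, immunoproteasome subunits and interferon-stimulated genes. All 47 were found among the 36904 gene IDs of the deposited table, and all 47 were among the 18218 genes that passed the filter on low counts. They fall into 8 role groups: 4 class I chains, 3 genes of peptide loading, 3 immunoproteasome subunits, 2 transactivators, 4 class II genes, 4 transcription factors, 21 interferon-stimulated effectors and 6 guanosine triphosphatases. No measured value entered the choice of a gene, but the list was drawn up with earlier results of these data known.

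Interferons are secreted proteins that cells release on sensing viral or misplaced nucleic acid. Type I interferon signals through its receptor to a complex of Stat and Irf9 proteins that binds interferon-stimulated response elements in DNA, and interferon gamma raises MHC and guanylate-binding protein genes, partly through Irf1 and the transactivators Nlrc5 and Ciita. Class I molecules show peptides cut by the proteasome, and cut differently by the immunoproteasome, on nearly all cells, whereas class II molecules are made mainly by macrophages, dendritic cells and B cells. Healthy muscle fibres make little class I, and in muscle much of this RNA comes from blood vessel and immune cells.

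RNA of the soleus, a slow postural muscle of the hindlimb, was sequenced in bulk from C57Bl/6 mice of both sexes, in 78 libraries. Batch 2 held mice of 28 months: 12 males fed calcium alpha-ketoglutarate (CaAKG) at 2% of the feed, 10 control males and 7 control females. Batch 1 held control mice of 4 ages. Its females numbered 6 at 28 months, 6 at 20 months, 6 at 12 months and 4 at 6 months, and its males 5, 9, 6 and 6 at the same ages. All mice ate the same base feed, with no genetic alteration named. The 6-month and 12-month mice came from a supplier in Singapore and the 20-month mice from a supplier in the USA, and mice brought in at 17 months were randomised to control feed or compounds, and the labels do not tie the 28-month mice to a supplier, so age and origin cannot be told apart in comparisons of old with 6-month mice or of 28-month with 20-month mice. Of the 12-month females, 7 libraries gave 6 replicates, because 2 carried the same animal tag and were summed. The labels do not say more on how far the replicates of a group were kept apart, so p-values measure the spread between these samples.

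Library totals, in units of 1e+06 counts, ran from 19.5 to 81.6 over the 78 libraries (median 35.2), and summed transcripts of skeletal muscle markers from 35100 to 101000 counts per 1e+06 (CPM), the high levels muscle tissue has. The lowest of these sums was that of 12-month female 4, where mitochondrial transcripts took 46.5% of the counts, against 10.1 to 27.1% in the other libraries. Some libraries stood apart. Transcripts of 14 neutrophil and marrow granulocyte markers were above 100 CPM in 4 libraries: 28-month batch 1 females 10 and 12 and CaAKG males 6 and 7. Transcripts of 12 keratinocyte markers were above 100 CPM in 5 libraries: 28-month batch 1 female 8, CaAKG males 8 and 10, batch 2 control male 4 and 12-month female 5. Sex-linked transcripts went against the sex label in 5 libraries: 12-month females 1 and 4, 12-month male 3, 6-month female 3 and 6-month male 3. Groups keep their labels here, and each count of called genes was also taken without these libraries.

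Differences were tested with edgeR's quasi-likelihood test over all 18218 genes with 1 mean per group. A gene is said to have risen, fallen or been called at a Benjamini-Hochberg adjusted p (over all genes of a comparison) under 0.05. Fold changes are log2 ratios of the first-named group over the second, levels are CPM after TMM scaling, and errors are SD over replicates for levels and SE for fold changes. In bulk RNA, more cells of a type and more RNA per cell cannot be told apart. Class I, Ifit, Oas1, Gbp, Trim30 and Ifi27l2 genes have near-identical relatives among which expected counts split reads by estimate. Tap1 (chromosome 17, 34187553 to 34197225, plus strand, mm10) and Psmb9 (chromosome 17, 34181987 to 34187764, minus strand) overlap at their starts, and since the counting is not stated to use strand, reads of that overlap cannot be assigned.

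Averaged over all libraries and divided by exon length, the class I light chain B2m (chromosome 2, 122147686 to 122153083) had the highest level of the 47, at 126 CPM per kb, followed by the class I heavy chain H2-D1 (chromosome 17, 35262730 to 35267499) at 46.3 and H2-K1 at 33.9 CPM per kb. Cd74, the invariant chain of class II, reached 25.2 CPM per kb and the effector Ifi27l2a 17.9 CPM per kb. At the low end stood Mx1, which is a nonfunctional allele in C57BL/6 mice, at 0.0647 CPM per kb, and the class II transactivator Ciita at 0.0813 CPM per kb.

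Start regions of members that recur in the results are shown, to let the sequence be read beside the values. RefSeq promoters (GRCm38.p6, 250 bases before to 50 after the start) were at hand for 34 of the 47 genes. The core of the interferon-stimulated response element, GAAANNGAAA on either strand, overlapping matches included, was in 17 of these 34 genes (50%), against 1079 of 27025 genes with a promoter (3.99%). By role it was in 5 of 5 guanosine triphosphatases (Gbp2, Gbp3, Gbp7, Igtp and Irgm1), 9 of 14 effectors, 2 of 4 class I chains (B2m and H2-T23) and 1 of 4 transcription factors (Stat2). It was in 0 of 2 peptide loading genes, 0 of 3 immunoproteasome genes and 0 of 2 class II genes. A match is a run of letters, not a shown binding site. The sequences below run 5′ to 3′ along the gene's strand, and capitals mark the matches.
B2m, chr2:122147528-122147577, plus strand: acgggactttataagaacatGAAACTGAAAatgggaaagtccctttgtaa
Ifit1, chr19:34640765-34640833, plus strand: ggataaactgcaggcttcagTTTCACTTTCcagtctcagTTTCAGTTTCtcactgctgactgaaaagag
Ifit3, chr19:34583353-34583436, plus strand: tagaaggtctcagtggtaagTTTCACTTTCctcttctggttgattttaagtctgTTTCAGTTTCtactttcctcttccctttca
Isg15, chr4:156200855-156200916, minus strand: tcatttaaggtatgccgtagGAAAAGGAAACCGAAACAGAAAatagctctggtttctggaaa
Oas1a, chr5:120907526-120907565, minus strand: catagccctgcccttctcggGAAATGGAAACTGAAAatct
Gbp2, chr3:142620584-142620633, plus strand: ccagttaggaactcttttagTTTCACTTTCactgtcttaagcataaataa
Gbp7, chr3:142530263-142530312, plus strand: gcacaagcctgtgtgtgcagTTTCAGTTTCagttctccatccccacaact
Irgm1, chr11:48871421-48871470, minus strand: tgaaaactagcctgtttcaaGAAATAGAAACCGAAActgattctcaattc
The single match of B2m began 139 bases before the start, and the first of 2 overlapping matches in Oas1a 20 bases before it. Isg15 held 3 overlapping matches, while Ifit1 and Ifit3 held 2 separate ones each. Ifit1, Ifit3, Isg15, B2m and Gbp2 rose in 28-month over 6-month females, as given next, and Irgm1, with its 2 matches, passed by edgeR with TMM factors in no comparison, and in 28-month over 20-month females by DESeq2 and with RLE factors.

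**Figure D1:**
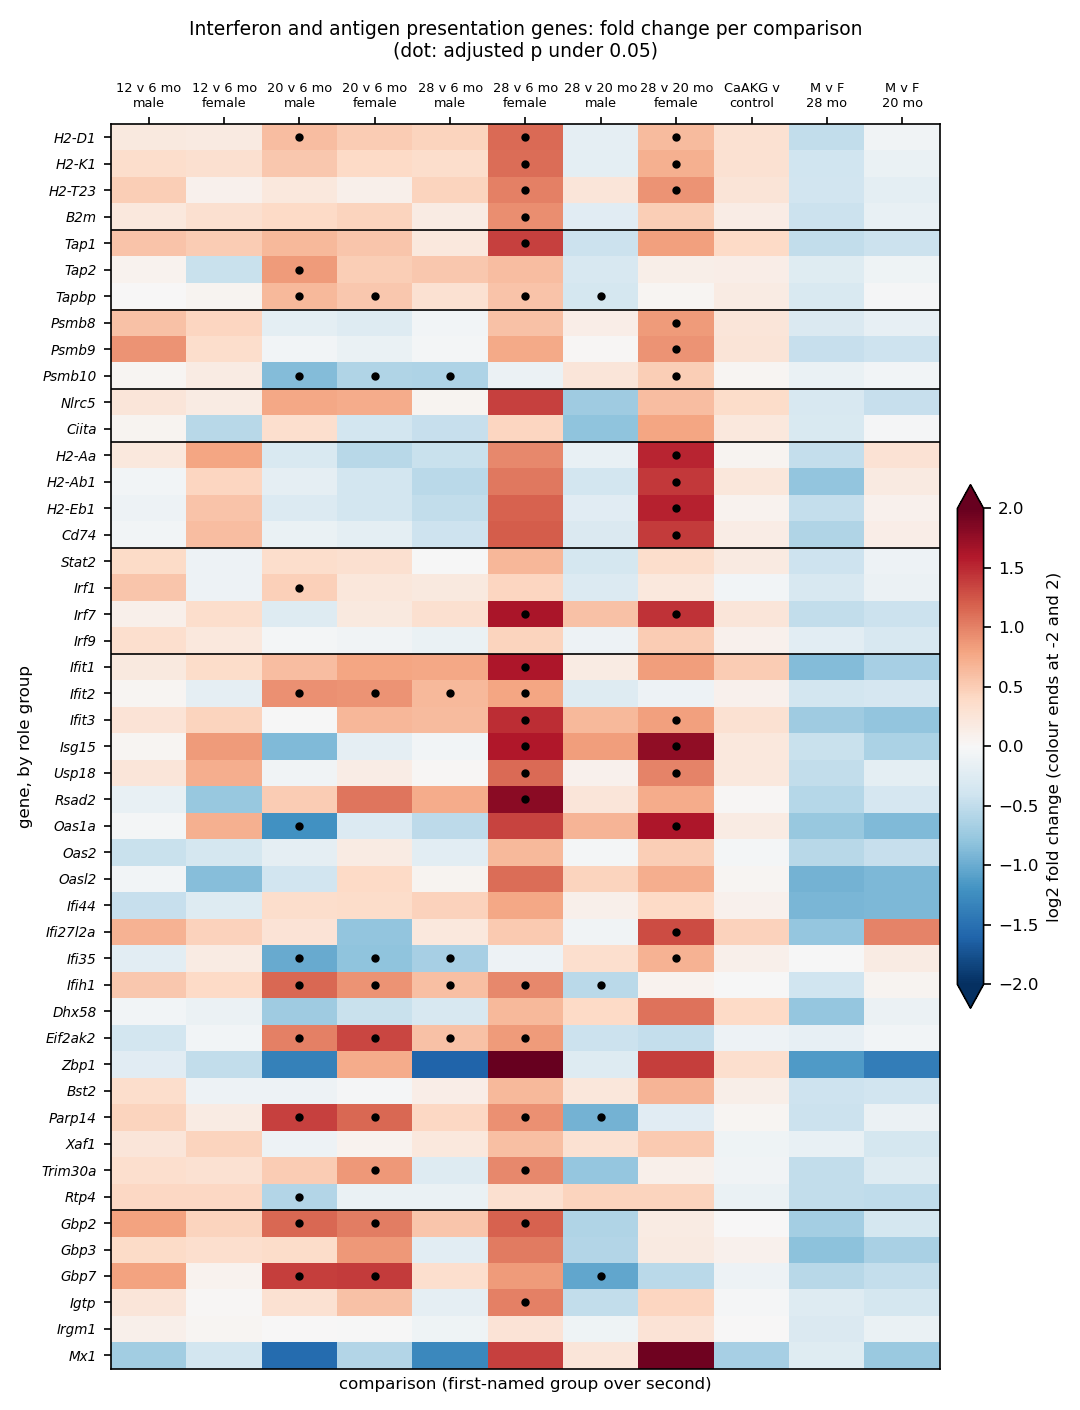
Log2 fold change of the 47 genes (rows, in role groups split by lines) in 11 comparisons (columns, the first-named group over the second), coloured from blue (lower) to red (higher) with the colour ending at -2 and 2. Dots mark adjusted p under 0.05. The column of 28-month over 6-month females holds 19 dots, all on red, and the columns of CaAKG over control and of males over females hold none.

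Between 28-month and 6-month females of batch 1, 19 of the 47 genes rose and 0 fell. Over all genes tested, 9.82% rose and 8.97% fell in this comparison. The members' median log2 fold change was 0.96, against 0.09 over all genes, and 45 of the 47 values were positive. Class I chains led: 4 of 4 rose, as did 2 of 3 peptide loading genes, 10 of 21 effectors, 2 of 6 guanosine triphosphatases and 1 of 4 transcription factors. Of the immunoproteasome, the transactivators and class II, 0 genes passed by edgeR, although the 4 class II genes had a median log2 fold change of 1.11, and DESeq2 called Cd74, H2-Eb1 and Nlrc5.

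Class I genes were at higher RNA levels in most 28-month females. H2-K1 ran from 66.6 to 261 CPM (median 184) in the 6 females of 28 months, against 95, 67.3, 94.8 and 61.3 CPM in those of 6 months. The 28-month female 13 lay within the range of the 6-month females and the others above it. The log2 fold change of H2-K1 was 1.12 (SE 0.30, adjusted p = 0.00669 by edgeR). H2-D1 averaged 204 ± 90.8 CPM in 28-month females and 92.8 ± 25.6 CPM in 6-month females (SD, n = 6 and n = 4), a log2 fold change of 1.13 with SE 0.27 (adjusted p = 0.00265 by edgeR). B2m averaged 170 ± 73.3 CPM in 28-month females and 89.3 ± 18.5 CPM in 6-month females (SD, n = 6 and n = 4) and rose by 0.93 (SE 0.25) on the log2 scale. H2-T23, a nonclassical class I chain that engages receptors of natural killer cells, rose by 1.01 (SE 0.27). Tapbp, which holds class I molecules ready for peptide, rose by 0.56 (SE 0.15, adjusted p = 0.00493). Tap1, a subunit of the peptide transporter, ran from 2.51 to 22.5 CPM (median 10.1) in 28-month females, against 5.5, 3.13, 5.52 and 3.56 CPM in 6-month females. Its adjusted p was 0.0434, and the call was lost when any of 7 libraries was left out.

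The effectors that rose were Ifit1, Ifit2, Ifit3, Isg15, Usp18, Rsad2, Ifih1, Eif2ak2, Parp14 and Trim30a. Ifit3, of a family that binds foreign RNA and blocks its translation, ran from 5.6 to 15.1 CPM (median 8.57) in 28-month females, against 2.63, 4.45, 3.75 and 2.95 CPM in 6-month females, so the groups did not overlap. Its log2 fold change was 1.48 (SE 0.36, adjusted p = 0.00284). Ifit1 rose by 1.62 (SE 0.42, adjusted p = 0.00457). Irf7, the transcription factor that amplifies type I interferon production, ran from 8.77 to 26.9 CPM (median 10.4) in 28-month females, against 4.28, 4.71, 4.86 and 3.17 CPM in 6-month females. All 6 old values of Irf7 exceeded all 4 young ones, and its log2 fold change was 1.63 (SE 0.47, adjusted p = 0.00975). Ifih1, a sensor of double-stranded RNA, ran from 2.94 to 9.01 CPM (median 7.24) in 28-month females, against 4.41, 3.14, 2.73 and 3.61 CPM in 6-month females. The log2 fold change of Ifih1 was 0.96 (SE 0.23, adjusted p = 0.00268), with female 13 alone inside the young range. Eif2ak2, the kinase that halts translation on double-stranded RNA, rose by 0.85 (SE 0.23) and Parp14, an ADP-ribosyltransferase, by 0.91 (SE 0.26). Isg15, a ubiquitin-like modifier, rose by 1.60 (SE 0.52), and Usp18, which removes it from proteins, by 1.14 (SE 0.39). Rsad2, which blocks viral replication, was highest in female 10 at 21 CPM and ran from 2.64 to 12.9 CPM in the other 28-month females, against 5.33, 1.3, 0.989 and 2.56 CPM in 6-month females.

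Among the guanosine triphosphatases, which attack the membranes around intracellular microbes, Gbp2 and Igtp rose. Gbp2 ran from 6.05 to 37.3 CPM (median 10.6) in 28-month females, against 8.46, 4.89, 7.73 and 5 CPM in 6-month females. Female 12 held the highest value of Gbp2, Gbp3 (30.5 CPM), Gbp7 (25.6 CPM) and Igtp (24.9 CPM). Without that library the log2 fold change of Gbp2 was 0.67 and that of Igtp 0.67, against 1.19 and 1.01 with it, and neither passed.

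The size of this rise differed between the 28-month females, of which 10 and 12 were marrow-rich and 8 was skin-rich. Summed neutrophil and marrow granulocyte markers ran from 2.88 to 1620 CPM (median 34.2) in 28-month females, against 0.771 to 2.66 CPM (median 1.03) in 6-month females. Each of the 14 markers was seen in at least 1 of the 28-month females, whereas Mpo, Cd177 and Fcnb were at 0 in every 6-month female. Macrophage markers summed to 86.5 to 561 CPM (median 230) in 28-month females, against 53.4 to 217 CPM (median 158) in 6-month females. B cell markers summed to 0.252 to 112 CPM in 28-month females, against 1.11 to 5.5 CPM in 6-month females. T and NK cell markers had a median sum of 4.07 CPM in 28-month females, against 0.543 CPM in 6-month females, and endothelial markers of 315 CPM in 28-month females, against 166 CPM in 6-month females. The mean log2 CPM of the 47 genes was 3.67 and 3.92 in the marrow-rich females 10 and 12 and 3.47 in the skin-rich female 8. In the other 28-month females, 9, 11 and 13, it was 2.69, 2.99 and 2.48, against 2.64, 2.42, 2.44 and 2.18 in the 6-month females. Below the marrow limit of 100 CPM, females 8, 9, 11 and 13 had granulocyte marker sums of 4.5, 62.9, 5.5 and 2.9 CPM.

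In the refit without the marrow-rich libraries 1411 of all 17977 genes tested rose and 1349 fell. Of the 47 genes 5 rose there, a share near that background, and 0 fell. The members' median log2 fold change was 0.63, against 0.06 over all genes, with 44 positive values. Those 5 were H2-D1 at 0.80 (adjusted p = 0.0442), H2-K1 at 0.91 (0.048), Tapbp at 0.45 (0.039), Ifit3 at 1.15 (0.0308) and Ifih1 at 0.80 (0.0206), all by edgeR. Without the marrow-rich, skin-rich and sex-mismatched libraries 0 passed by edgeR, 8 had an unadjusted p under 0.05, and the median was 0.42 with 38 positive values. How many of all genes had such a p in that refit is not given here. The part of marrow, skin, immune or endothelial cells in the rise was not tested beyond leaving these libraries out. The count was also 12 with offsets for transcript length and GC content, 12 without 28-month female 12, 11 and 12 without 6-month females 2 and 3, and 0 when only the compared groups entered the fit, where 26 had an unadjusted p under 0.05. DESeq2 called 26 higher. The genes that kept their call whichever single library of the comparison was left out were Tapbp, Irf7, Ifih1, Parp14, Ifit1, Ifit3, B2m, H2-K1, H2-T23 and H2-D1. Of these, Tapbp and Parp14 lost it with the length and GC offsets. Irf7, Parp14, Ifit1, B2m and H2-T23 lost it without the marrow-rich libraries.

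**Figure D2:**
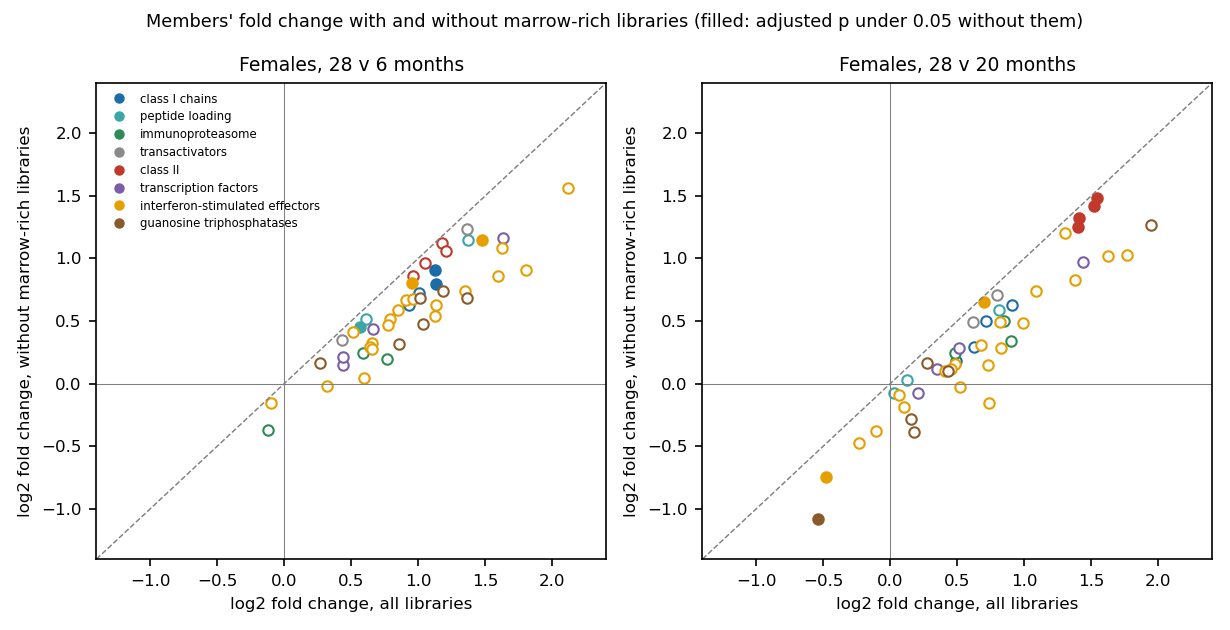
Log2 fold change of each of the 47 genes with all libraries (x axis) and without the 4 marrow-rich libraries (y axis), for 28-month over 6-month females (left) and 28-month over 20-month females (right). Filled points pass adjusted p under 0.05 without those libraries, colours give role groups, and the dashed line marks equal values. Points lie under the line in both panels, and the 4 class II genes on the right stay near it at 1.25 to 1.48.

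A further set of 7 control females of 28 months came from batch 2, where the highest neutrophil marker sum was 11 CPM and no library was marrow-rich or skin-rich. Their mean log2 CPM of the 47 genes ran from 2.62 to 3.30. H2-D1 ran from 109 to 172 CPM (median 135) and Ifit3 from 5.09 to 12.8 CPM (median 8) in them, while Irf7 ran from 7.48 to 14.5 CPM (median 10.8). Rsad2 lay between 7.27 and 11.2 CPM. These levels are given as a description, since batch 2 held no younger mice.

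Genes of the same pathway that are not on the list of 47 were also compared in 28-month over 6-month females. Of 28 interferon signalling genes 7 rose and 1 fell, and of 18 antigen presentation genes 4 rose and 1 fell. In this comparison 9.82% of all genes rose and 8.97% fell. Samhd1, which depletes nucleotides needed by viruses, rose by 0.71 (SE 0.16, adjusted p = 0.00189), Stat3 by 0.78 (SE 0.19), Adar, which edits double-stranded RNA, by 0.90 (SE 0.24) and Irf2 by 0.51 (SE 0.16). Ifngr2, a chain of the interferon gamma receptor, fell by 0.63 (SE 0.15, log2 fold change -0.63, adjusted p = 0.00233). The class I gene H2-Q4 rose by 1.13 (SE 0.34, adjusted p = 0.014). Without the marrow-rich libraries 2 of 28 signalling and 1 of 18 presentation genes rose and 1 of each list fell. There 1411 of all 17977 genes rose and 1349 fell. Without all libraries that stood apart 1 of 28 and 1 of 17 rose and 0 fell by edgeR.

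In 28-month over 6-month males of batch 1, 3 of the 47 genes rose and 2 fell, where 6.76% of all genes rose and 9.37% fell. The members' median log2 fold change was 0.05, against 0.02 over all genes, with 25 positive values. The share that rose is near the background, and the share that fell is below it. Ifit2 rose by 0.65 (SE 0.23, adjusted p = 0.0418), Ifih1 by 0.60 (SE 0.21, 0.0401) and Eif2ak2 by 0.58 (SE 0.21, 0.0418). Each of these 3 calls was lost when any of 8 of the 11 libraries was left out. Ifi35, which binds other interferon-induced proteins, was at 13, 11.9, 8.81, 10.2 and 11.2 CPM in 28-month males, against 13 to 20.7 CPM (median 17.6) in 6-month males. Its log2 fold change was -0.67 (SE 0.15, adjusted p = 0.00185), and the call held without any single library. Psmb10, an immunoproteasome subunit, had a log2 fold change of -0.62 with SE 0.18 (adjusted p = 0.0141), which missed the threshold without 28-month male 13 (adjusted p = 0.0501).

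Class I and class II parted in these males without passing the test. The 4 class I chains had a median log2 fold change of 0.40, all positive, and the 4 class II genes -0.47, all negative. Cd74 was at 64.7, 40, 12.3, 20.4 and 19 CPM in 28-month males, against 23.3 to 84.4 CPM (median 30.6) in 6-month males, with wide overlap. The highest class II levels in each group came from 28-month male 11 and 6-month males 1 and 5. The count of 5 called genes became 2 or 3 without 28-month males 11, 12, 13, 14 or 15 or without 6-month males 2, 4, 5 or 6, 2 with no filter on low counts and 1 with length and GC offsets. Endothelial markers summed to 225 to 454 CPM in 28-month males, against 95.5 to 195 CPM in 6-month males, without overlap, and dendritic cell markers to 7.21 to 13.6 CPM (median 9.43) in 28-month males, against 3.94 to 9.91 CPM (median 6.61) in 6-month males. Their part in the values was not tested. Of the pathway genes off the list, 1 of 28 signalling genes rose and 3 fell, where 6.76% of all genes rose and 9.37% fell. Without all libraries that stood apart 3 of the signalling genes rose and 3 fell. Socs3, a feedback inhibitor of cytokine signalling, had a log2 fold change of -2.25 with SE 0.57 (adjusted p = 0.00389), Ifngr2 -0.87 (SE 0.14, 4.34e-05) and Irf5 -1.30 (SE 0.36, 0.00884), while Ifngr1 rose by 0.44 (SE 0.15, 0.0372).

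The difference of the age changes, males minus females, was tested as an interaction. By edgeR 0 of the 47 genes passed in either direction, 14 had an unadjusted p under 0.05, and DESeq2 called 1 (Zbp1). Over all genes 0.11% were called higher and 0.17% lower, and 2147 of 18218 had an unadjusted p under 0.05 by edgeR. The sign was negative for all 47 genes, with a median of -0.77 against -0.05 over all genes, so the 28 to 6 month log2 ratio was smaller in males than in females for every member with all libraries in the fit. Without the marrow-rich libraries 5 of 47 were positive and the median was -0.44, and without all libraries that stood apart 10 were positive and the median was -0.26. The smallest p belonged to Zbp1, a sensor of Z-form nucleic acid, at -3.72 (SE 1.23, adjusted p = 0.158). Zbp1 lay between 0.0319 and 0.515 CPM in 28-month males, against 0 to 2.59 CPM in 6-month males, and between 0.611 and 4.53 CPM in 28-month females, against 0.33 to 0.689 CPM in 6-month females. Without the libraries against their sex label, and also without all libraries that stood apart, 1 member passed, Ifi35 (-0.74, SE 0.22, adjusted p = 0.0495 without all of them). Off the list, Socs3 passed at -3.50 (SE 0.82, adjusted p = 0.0387) with all libraries. Without the marrow-rich ones 0 of the 28 interferon signalling genes passed by edgeR, with the lowest value at -3.76, and without all that stood apart 1 passed, lower in males, with the lowest value at -4.26.

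**Figure D3:**
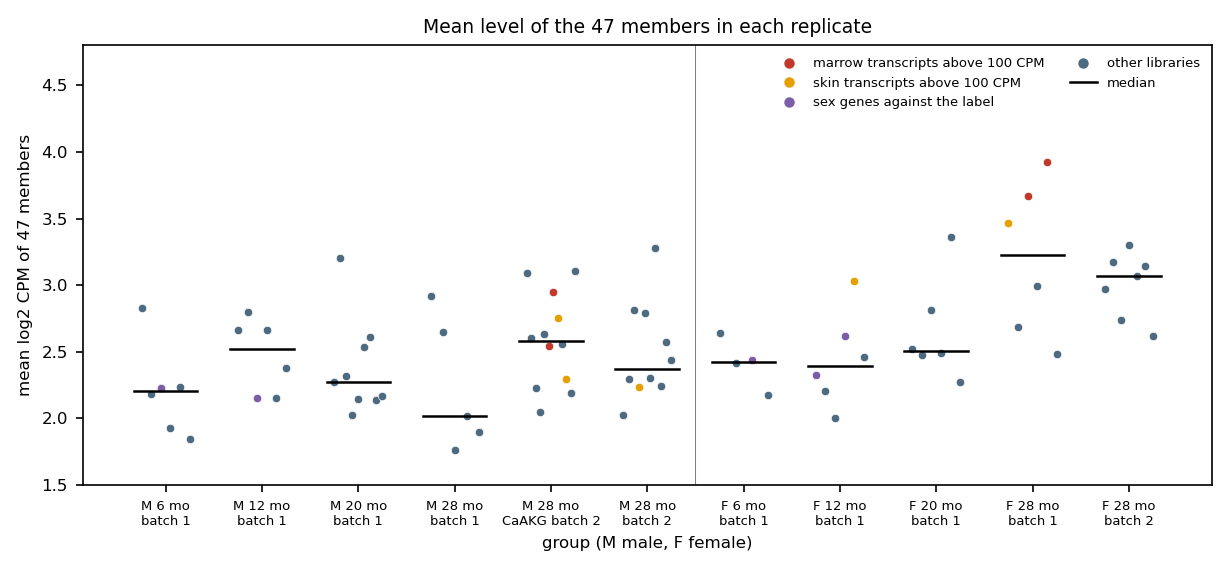
Mean log2 CPM of the 47 genes in each replicate (points), by group, with males on the left and females on the right of the vertical line. Bars are medians, red points marrow-rich libraries, orange skin-rich, purple against the sex label. The batch 1 females of 28 months run from 2.48 to 3.92 with the coloured points on top, and the 6-month females from 2.18 to 2.64.

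At 20 months the genes called in either sex had the same sign in both. In 20-month over 6-month females 8 of the 47 genes rose and 2 fell, where 18.2% of all genes rose and 17.8% fell. In 20-month over 6-month males 10 rose and 4 fell, where 22.5% of all genes rose and 22% fell. The shares that rose are near the background, and those that fell, 2 and 4 of 47, are below it. The counts therefore show no surplus of called genes among the members. The median log2 fold change was 0.23 in females and 0.22 in males, with 29 and 25 positive values, and over all genes 0.00 in females and 0.02 in males.

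The effectors Parp14, Eif2ak2, Ifih1 and Ifit2 rose in both sexes and Ifi35 fell in both. Parp14 ran from 9.93 to 19.5 CPM (median 12.6) in 20-month females, against 7.37, 6.02, 6.14 and 4.28 CPM in 6-month females, and from 10.2 to 16.7 CPM (median 11.6) in 20-month males, against 3.78 to 6.63 CPM (median 4.44) in 6-month males. Neither sex showed overlap, and the log2 fold changes were 1.14 (SE 0.26, adjusted p = 0.000207) in females and 1.37 (SE 0.21, adjusted p = 1.3e-07) in males. Eif2ak2 lay between 6.42 and 7.96 CPM in 20-month females, against 1.83 to 4.39 CPM in 6-month females, a log2 fold change of 1.33 with SE 0.23 (adjusted p = 2.24e-06). In males its range was 4.77 to 9.34 CPM at 20 months, against 2.18 to 4.98 CPM at 6 months, with a small overlap, and its log2 fold change was 1.00 (SE 0.18, adjusted p = 4.49e-06). Ifih1 rose by 0.89 (SE 0.23) in females and 1.15 (SE 0.19) in males, and Ifit2 by 0.90 (SE 0.25) in females and 0.91 (SE 0.21) in males. Ifi35 moved the other way: 20-month females lay between 6.46 and 9.5 CPM, against 11.6 to 16.9 CPM in 6-month females, and 20-month males between 7.73 and 10.9 CPM, against 13 to 20.7 CPM in 6-month males. Its log2 fold change was -0.80 (SE 0.16, adjusted p = 3.79e-05) in females and -1.004 (SE 0.13, adjusted p = 1.35e-09) in males.

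Of the guanosine triphosphatases, Gbp7 rose by 1.40 (SE 0.40, adjusted p = 0.00359) in females and 1.38 (SE 0.33, 0.000319) in males, and Gbp2 by 1.03 (SE 0.37) and 1.16 (SE 0.31). The 20-month female 5 had the highest Gbp7 (35.9 CPM), Gbp3 (27.5 CPM) and Gbp2 (27.8 CPM) of its group, and without it the female Gbp2 change was 0.67 and did not pass. Trim30a, which restrains inflammatory signalling, rose in females by 0.86 (SE 0.34, adjusted p = 0.0375), a call lost without any of 6 libraries. In males Oas1a, which makes the activator of an RNA-cutting enzyme, had a log2 fold change of -1.22 with SE 0.41 (adjusted p = 0.0112) that rested on 6-month male 1 at 3.91 CPM: without it the value was -0.36 (adjusted p = 0.523). Rtp4, a chaperone of receptor transport, had a log2 fold change of -0.58 with SE 0.23 (adjusted p = 0.0325).

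In antigen presentation, Tapbp rose in both sexes, by 0.53 (SE 0.15, adjusted p = 0.00233) in females and 0.64 (SE 0.12, adjusted p = 6.37e-06) in males. Males also showed a rise of Tap2, the partner of Tap1 in the peptide transporter, by 0.85 (SE 0.20, adjusted p = 0.000189), of H2-D1 by 0.62 (SE 0.22, 0.0164) and of Irf1 by 0.48 (SE 0.20, 0.0425). Tap2 lay between 12.5 and 20.7 CPM in 20-month males, against 6.54 to 10.2 CPM in 6-month males. The H2-D1 call was lost without 6-month male 6 (adjusted p = 0.0514) and the Irf1 call without any of 9 libraries. Class II genes did not pass, and their 4 values were negative in females (median -0.36) and in males (median -0.22).

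Endothelial and dendritic cell markers moved with the 20-month comparison. Endothelial markers summed to 436 to 594 CPM in 20-month females, against 135 to 325 CPM in 6-month females, and to 449 to 653 CPM in 20-month males, against 95.5 to 195 CPM in 6-month males. Dendritic cell markers summed to 10.5 to 13.9 CPM in 20-month females, against 4.93 to 9.38 CPM in 6-month females, and to 11 to 15.1 CPM in 20-month males, against 3.94 to 9.91 CPM in 6-month males. All 8 endothelial markers were seen in every library of these groups, and none of the 8 dendritic cell markers was at 0 throughout a group. Their part in the members' values was not tested.

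Offsets per library for transcript length and GC content changed which genes passed at 20 months. In females 4 rose and 0 fell with the offsets: Tapbp, Eif2ak2, H2-D1 and B2m. In males 10 rose and 2 fell, among them H2-D1 at 0.79, H2-K1 at 0.75 and B2m at 0.77. With offsets, the Parp14 log2 fold change was 0.31 in females and 0.55 in males, and neither passed. The Ifi35 log2 fold change was -0.38 (adjusted p = 0.0835) in females and -0.64 (adjusted p = 3.81e-05) in males. Eif2ak2 kept its call in both sexes, at 1.00 in females and 0.66 in males.

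**Figure D4:**
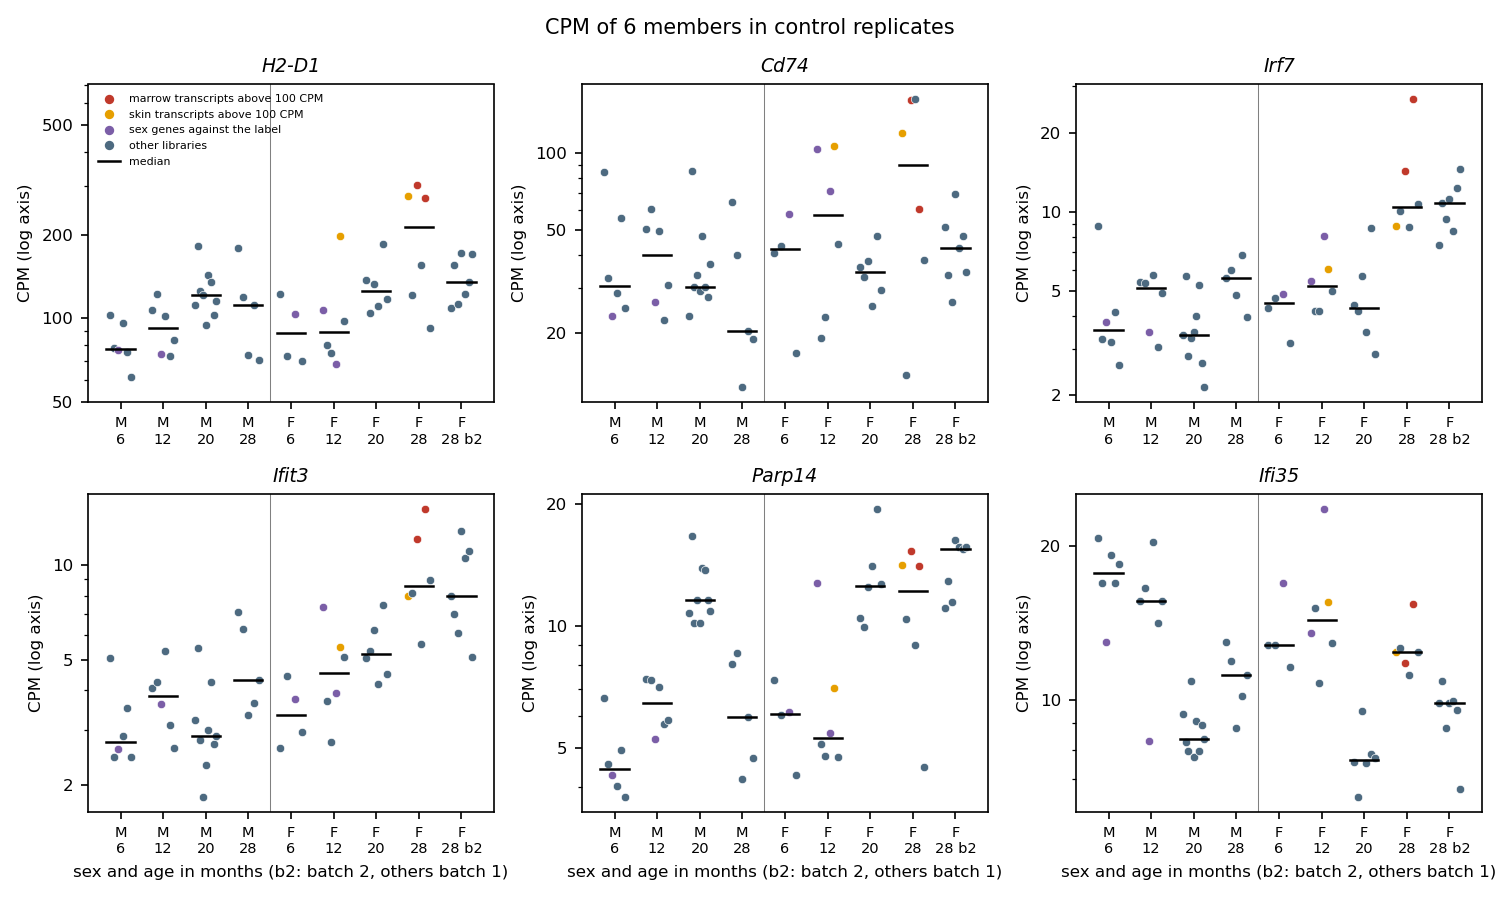
TMM-scaled CPM of H2-D1, Cd74, Irf7, Ifit3, Parp14 and Ifi35 (log axes) in every control replicate other than the batch 2 males, by group, with males left of females and ages from low to high. Red points are marrow-rich, orange skin-rich and purple against the sex label, and bars are medians. Parp14 is above and Ifi35 below the 6-month range in every 20-month replicate of both sexes.

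The immunoproteasome could be set beside the subunits it replaces. Psmb8, Psmb9 and Psmb10 take the places of Psmb5, Psmb6 and Psmb7 in the proteasome of cells under interferon. At 20 over 6 months all 3 constitutive subunits fell in both sexes. The log2 fold change of Psmb5 was -0.92 (SE 0.13) in females and -0.94 (SE 0.11) in males, that of Psmb6 -0.88 (SE 0.12) in females and -0.88 (SE 0.10) in males, and that of Psmb7 -0.67 (SE 0.12) in females and -0.70 (SE 0.09) in males. Psmb10 fell alongside, at -0.61 (SE 0.19, adjusted p = 0.00863) in females and -0.87 (SE 0.16, adjusted p = 3.12e-06) in males. It lay between 6.74 and 10.9 CPM in 20-month males, against 13 to 21.7 CPM in 6-month males. Psmb8 and Psmb9 did not pass at 20 months in either sex. At 28 over 6 months Psmb5, Psmb6 and Psmb7 fell in males (-0.39, -0.34 and -0.32) and Psmb6 and Psmb7 in females (-0.40 and -0.46), while Psmb8 and Psmb9 in females had 0.59 and 0.76 without passing. Without all libraries that stood apart, 0 of the 3 constitutive subunits passed in 28-month over 6-month females by edgeR, at -0.236 to -0.0984. With length and GC offsets the Psmb10 fall at 20 months did not pass in females and was -0.47 (adjusted p = 0.0136) in males. The constitutive subunits were not examined with the offsets, DESeq2, RLE factors or single libraries left out.

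**Figure D5:**
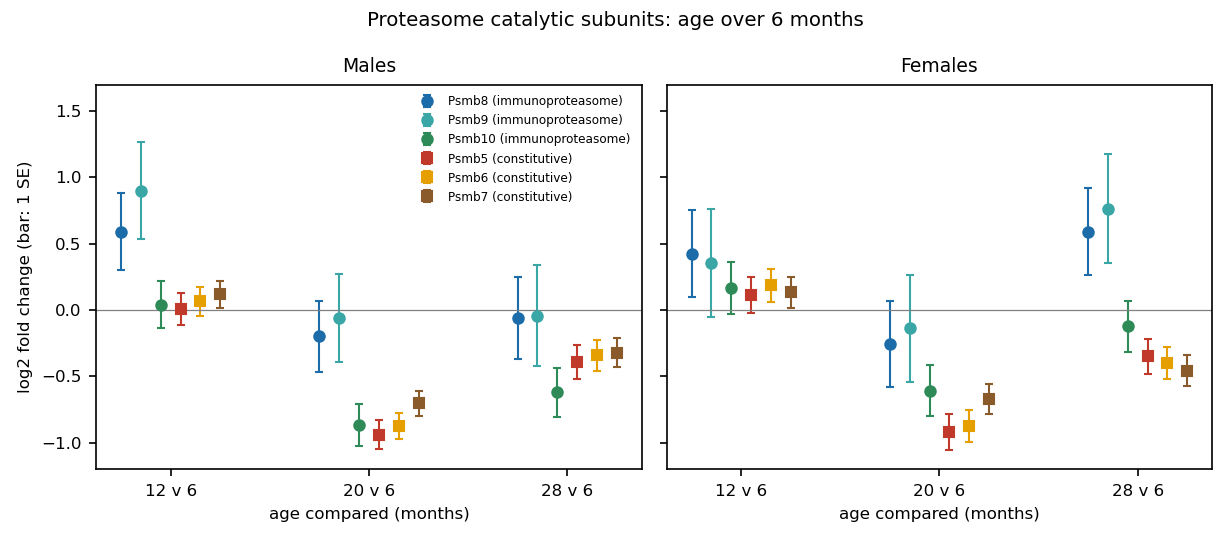
Log2 fold change with 1 SE of the immunoproteasome subunits (circles) and their constitutive counterparts (squares) for 12, 20 and 28 over 6 months, in males (left) and females (right). The constitutive subunits lie below 0 at 20 and 28 months in both sexes, and Psmb10 lies with them at 20 months.

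Of the pathway genes off the list, 6 of 28 interferon signalling genes rose and 4 fell in 20-month over 6-month females. In males 10 rose and 6 fell. Of all genes, 18.2% rose and 17.8% fell in females, and 22.5% rose and 22% fell in males. Ifngr2 fell in both, at -0.87 (SE 0.15) in females and -0.92 (SE 0.12) in males, and so did Trex1, a DNA-degrading enzyme, at -0.76 (SE 0.18) and -0.72 (SE 0.14). Jak1, a kinase of the interferon receptors, rose by 0.52 (SE 0.12) and 0.50 (SE 0.09). Antigen presentation genes off the list were 4 higher and 4 lower of 18 in females and 4 higher and 5 lower in males. Erap1, which trims peptides for class I, rose by 0.92 (SE 0.14) in females and 0.88 (SE 0.11) in males, and Psme2, a proteasome activator subunit, had log2 fold changes of -0.79 (SE 0.13) and -0.65 (SE 0.11).

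The last age step compared 28 with 20 months in batch 1, and its difference between the sexes was not tested. The 20-month groups serve in this comparison and in the one before, and the 28-month groups in this and in that with 6 months, so their values are not independent. In 28-month over 20-month females 17 of the 47 genes rose and 0 fell, where 17.2% of all genes rose and 12.5% fell. The median log2 fold change was 0.68, against 0.09 over all genes, with 43 positive values. All 4 class II genes rose, 3 of 4 class I chains and 3 of 3 immunoproteasome subunits, but 0 of 3 peptide loading genes and 0 of 6 guanosine triphosphatases. The remaining 7 were Irf7, Ifit3, Isg15, Usp18, Oas1a, Ifi27l2a and Ifi35.

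Class II was led by H2-Eb1, H2-Aa, H2-Ab1 and Cd74, at log2 fold changes of 1.54 (SE 0.44), 1.52 (SE 0.45), 1.41 (SE 0.43) and 1.40 (SE 0.42). H2-Aa ran from 4.55 to 70.6 CPM (median 31.7) in 28-month females, against 7.66 to 18.3 CPM (median 11.9) in 20-month females. Cd74 was at 119, 160, 162, 60.4 and 38.4 CPM in 28-month females 8, 10, 11, 12 and 13 and at 13.8 CPM in female 9, against 25.4 to 47.8 CPM in 20-month females. Female 9, with the lowest Cd74 level, was below every 20-month female, and females 8, 10 and 11 were highest. Those 3 libraries also had the highest B cell marker sums, at 14, 112 and 43.6 CPM, while females 9, 12 and 13 were at 0.27, 0.252 and 0.404 CPM. Their dendritic cell marker sums were the highest too, at 14.1, 21.5 and 18.3 CPM, against 6.66, 8.61 and 6.06 CPM. So were their T and NK cell marker sums, at 4.83, 12.8 and 9.65 CPM, against 0.295, 3.3 and 0.875 CPM. Macrophage marker sums ranked otherwise, with female 11 at 184 CPM and female 12 at 275 CPM. All 4 class II calls held without any single library. In 20-month females B cell markers summed to 0.633 to 1.36 CPM. The class II helpers H2-DMa, H2-DMb1, H2-DMb2, H2-Oa and H2-Ob, which are off the list, also rose, H2-DMa by 1.33 (SE 0.40, adjusted p = 0.00874) and H2-Oa by 5.23 (SE 1.35, adjusted p = 0.00249). The part of B cells, dendritic cells, T and NK cells and macrophages in these values was not tested.

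Of the others, Irf7 rose by 1.44 (SE 0.40, adjusted p = 0.00466), Isg15 by 1.77 (SE 0.45, adjusted p = 0.00228), Oas1a by 1.62 (SE 0.45, adjusted p = 0.00508) and H2-T23 by 0.91 (SE 0.23, adjusted p = 0.00223). Irf7 ran from 8.77 to 26.9 CPM in 28-month females, against 2.87 to 8.66 CPM in 20-month females, without overlap. Ifi35 ran from 11.2 to 15.4 CPM in 28-month females, against 6.46 to 9.5 CPM in 20-month females, again without overlap, at a log2 fold change of 0.70 with SE 0.15 (adjusted p = 0.000217). In 28-month over 6-month females Ifi35 had been at -0.10 and Psmb10 at -0.12, neither past the test. In the pathway lists 7 of 28 signalling genes rose and 2 fell, and 7 of 18 presentation genes rose and 2 fell. Of all genes, 17.2% rose and 12.5% fell in 28-month over 20-month females. Without the marrow-rich libraries 4 of 28 signalling genes rose and 0 fell, and 6 of 18 presentation genes rose and 1 fell. There 2337 of all 17977 genes rose and 1775 fell. Without all libraries that stood apart 4 of 28 rose and 1 fell, and 4 of 17 rose and 2 fell, with the highest presentation value at 2.93. Irf3, a transcription factor activated by nucleic acid sensors, rose by 0.49 (SE 0.12), Trex1 by 0.63 (SE 0.16), Irf8 by 1.31 (SE 0.37), and the inhibitors Socs1 and Socs3 by 1.94 (SE 0.51) and 1.75 (SE 0.52).

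Without the marrow-rich libraries 2337 of all 17977 genes tested rose in this comparison and 1775 fell. The members kept 5 rises, H2-Aa (1.42), H2-Ab1 (1.32), H2-Eb1 (1.48), Cd74 (1.25) and Ifi35 (0.65). They gained 2 falls, Eif2ak2 (log2 fold change -0.74) and Gbp7 (-1.08). Neither share of the members exceeds that background. Without all libraries that stood apart 3 rose, H2-Aa, H2-Eb1 and Ifi35, and 3 fell, Eif2ak2 (-0.92), Parp14 (-0.70) and Gbp7 (-1.33). In that refit H2-D1 and Psmb9 were at -0.06 and -0.07, and its share over all genes is not given here. Endothelial markers summed to 93.1 to 402 CPM in 28-month females, against 436 to 594 CPM in 20-month females, without overlap, and their part in these values was not tested. The count of 17 was 6 with length and GC offsets, 10 and 11 without 28-month females 10 and 12, and 11, 10 and 9 without 20-month females 1, 2 and 6.

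In 28-month over 20-month males 0 of the 47 genes rose and 4 fell, where 8.21% of all genes rose and 8.73% fell. The median log2 fold change was -0.15, against 0.00 over all genes, with 19 positive values, and the share that fell is near the background. Parp14 was at 8.08, 8.6, 4.2, 5.95 and 4.72 CPM in 28-month males, against 10.2 to 16.7 CPM in 20-month males, without overlap, and its log2 fold change was -0.94 (SE 0.22, adjusted p = 0.00169). Gbp7 was at -1.04 (SE 0.34, adjusted p = 0.0262), Ifih1 at -0.54 (SE 0.20, 0.0441) and Tapbp at -0.34 (SE 0.13, 0.0477). Endothelial markers summed to 225 to 454 CPM (median 340) in 28-month males, against 449 to 653 CPM (median 538) in 20-month males, and dendritic cell markers had medians of 9.43 CPM in 28-month males and 14.1 CPM in 20-month males. Their part in these falls was not tested. Only the Parp14 call held without any single library. The count was 1 without 28-month males 13, 14 or 15 or 20-month male 2, and 2 without 20-month males 4, 6 or 7. It was 2 with RLE factors (Parp14 and Gbp7), 1 with no filter (Parp14) and 1 with length and GC offsets (Tapbp). Parp14 thus did not pass with the offsets. With a fit of only the compared groups the count was 8 (3 higher and 5 lower). Psmb5, Psmb6 and Psmb7 rose in these males by 0.55, 0.53 and 0.38. Off the list, 1 of 28 signalling genes rose (Irf3, 0.35) and 2 fell (Jak1 and Irf2, log2 fold changes -0.36 and -0.47), or 4 fell without all libraries that stood apart, while Erap1 was at -0.68 (SE 0.12) and in females at -0.84 (SE 0.12).

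At 12 over 6 months 0 of the 47 genes passed in either sex by edgeR or DESeq2. In females 0 had an unadjusted p under 0.05 by edgeR and 2 by DESeq2, where 2617 of all 18218 genes had such a p by edgeR. The median log2 fold change was 0.17 with 33 positive values, and over all genes 0.0384% rose and 0.187% fell. Without all libraries that stood apart the median was -0.07 with 16 positive values. The smallest p was that of Tap2, which lay between 3.63 and 14.1 CPM in 12-month females, against 16.7, 10.6, 10.7 and 8.78 CPM in 6-month females (log2 fold change -0.45, SE 0.23, adjusted p = 0.366 by edgeR). In males 7 had an unadjusted p under 0.05 by edgeR and 8 by DESeq2. Of all 18218 genes, 4192 had such a p by edgeR, and the members' 7 of 47 is below that share. The median was 0.21 with 34 positive values, and over all genes 3% rose and 6.77% fell. Ifih1 had the smallest p, at 0.54 (SE 0.20, adjusted p = 0.0783), and Psmb9 the largest positive change among those 7, at 0.90 (SE 0.36, adjusted p = 0.107). Psmb9 lay between 2.14 and 7.01 CPM in 12-month males, against 2.39 to 3.49 CPM in 6-month males, and its lowest value was that of male 3, whose sex-linked transcripts went against the label. Without male 3 of 12 months 3 members rose. Without all libraries against their sex label 2 rose (Irf1 and Psmb9), without all that stood apart 4 (Irf1, Ifih1, Gbp2 and Psmb9), and with only the compared groups 2 (Gbp2 and Gbp7). The shares over all genes in these refits are not given here, so the counts show no surplus of members. In the 12-month males 1 of 28 signalling genes rose and 2 fell (6 fell without all libraries that stood apart), Socs3 at -1.88 (SE 0.52, adjusted p = 0.0133) and Stat3 at -0.49 (SE 0.16), with Irf3 at 0.41 (SE 0.12).

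The CaAKG comparison asks whether the compound, fed late in life, changed the soleus of old males. None of the 47 genes passed in either direction by edgeR or DESeq2, and 0 had an unadjusted p under 0.05 by either. Over all genes 0.022% rose and 0% fell by edgeR, with 1201 of 18218 at an unadjusted p under 0.05. The members' median log2 fold change was 0.12, against 0.01 over all genes, with 37 positive values. Their mean log2 CPM ran from 2.05 to 3.11 in the 12 CaAKG males, against 2.02 to 3.28 in the 10 control males, with overlap over nearly the whole range.

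By role, the 4 class I chains had a median log2 fold change of 0.28, and of 0.15 without all libraries that stood apart, with all 4 positive in each. The 2 transactivators had a median of 0.29 with all libraries, of -0.01 without the marrow-rich ones and of -0.40 without all that stood apart. H2-D1 ran from 74.8 to 208 CPM (median 114) in CaAKG males, against 71.8 to 155 CPM (median 90.4) in control males, a log2 fold change of 0.31 with SE 0.18 (adjusted p = 0.853 by edgeR). The highest H2-D1, H2-K1 (201 CPM), Tap1 (17.3 CPM) and Nlrc5 (10.3 CPM) of the CaAKG group all came from male 8, a skin-rich library. Ifit1 had the smallest p of the 47: it ran from 2.2 to 12.5 CPM (median 4.06) in CaAKG males, against 2.2 to 9.35 CPM (median 2.84) in control males (log2 fold change 0.50, SE 0.26, adjusted p = 0.784 by edgeR). Irf7 ran from 3.46 to 23.7 CPM (median 5.68) in CaAKG males, against 3.13 to 30.7 CPM (median 4.93) in control males. High Irf7 fell to few animals of each group: CaAKG males 1 and 12 at 23.7 and 18.3 CPM, and control male 7 at 30.7 CPM. Class II genes had a median of 0.11 with all libraries and of -0.32 without the libraries that stood apart, among them the marrow-rich CaAKG male 7 at 66 CPM of Cd74. Without those libraries 30 of the 47 values were positive and the median was 0.06.

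Males were set against females of the same age at 28 months in batch 2 and at 20 months in batch 1. At 28 months the fold change was negative for all 47 genes, with a median of -0.46 against 0.04 over all genes, but 0 passed by edgeR or DESeq2. Of the 47, 18 had an unadjusted p under 0.05 by edgeR and 22 by DESeq2, where 2513 of all 18218 genes had such a p by edgeR. Over all genes 0.906% were called higher and 0.373% lower in males. Ifit1 had the smallest p, running from 2.2 to 9.35 CPM (median 2.84) in males, against 4.98 to 9.91 CPM (median 5.93) in females (log2 fold change -0.87, SE 0.30, adjusted p = 0.127). Oasl2 was at -0.95 (SE 0.33, adjusted p = 0.149), Tapbp at -0.30 (SE 0.11, 0.159), Ifit3 at -0.71 (SE 0.26, 0.16), H2-D1 at -0.50 (SE 0.20, 0.229) and H2-Ab1 at -0.78 (SE 0.36, 0.304). In Oasl2 9 of the 10 males lay between 0.857 and 4.9 CPM, against 4.8 to 9.15 CPM in the 7 females, and male 7 was at 11.1 CPM.

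Without control male 7 of batch 2 the count was 4 lower in males, and with a fit of only the compared groups 6 were lower: Rsad2, Tapbp, Gbp2, B2m, H2-D1 and Ifi27l2a. Without the libraries that stood apart all 47 values stayed negative, with a median of -0.43. Endothelial markers summed to 258 to 571 CPM (median 382) in these males, against 381 to 700 CPM (median 529) in the females, and macrophage markers to 87.3 to 197 CPM (median 119) in males, against 102 to 233 CPM (median 157) in females. Whether the members' values follow these cells was not tested.

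At 20 months 7 of the 47 values were positive and the median was -0.25, against 0.00 over all genes. By edgeR and DESeq2 0 passed and 7 had an unadjusted p under 0.05 by each, where 776 of all 18218 genes had such a p by edgeR. Over all genes 0.137% were called higher and 0.0768% lower in males. Ifit3 ran from 1.83 to 5.44 CPM (median 2.87) in males, against 4.2 to 7.48 CPM (median 5.2) in females (log2 fold change -0.79, SE 0.28, unadjusted p = 0.00542 by edgeR, lost on adjustment), and it alone passed when only the compared groups entered the fit. The 4 class II genes were positive here, with a median of 0.16. Ifi27l2a had the largest positive value, at 1.00 (SE 0.47), and ran from 3.58 to 21.9 CPM in males, against 3.33 to 6.86 CPM in females.

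Single animals carried different sides of the response. Control male 7 of batch 2 was the highest of its 10 for Irf7 (30.7 CPM), Ifit1 (9.35 CPM), Oas2 (9.41 CPM), Oasl2 (11.1 CPM), Zbp1 (1.44 CPM) and Bst2 (15.3 CPM), with H2-D1 at 130 CPM. Control male 3 of the same group had the highest H2-D1 (155 CPM), Tap1 (11.4 CPM), Gbp7 (20.9 CPM) and Igtp (16.2 CPM), with Irf7 at 3.13 CPM, the lowest of the group. In the 20-month females, female 5 was highest for Tap1 (16.4 CPM), Psmb9 (7.58 CPM) and Gbp7 (35.9 CPM), while its Oas2 (2.79 CPM) lay within the range of the other females, 1.87 to 4.01 CPM. These are descriptions of single libraries with no test.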

How the data were processed

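Soleus RNA libraries (78) were prepared from total RNA with an Illumina kit and sequenced as read pairs, per the labels' protocols. FastQC, STAR 2.7.11b, RSEM 1.3.3 and the build mm10 are named in the submitters' processing notes, with no roles given. The authors deposited 1 table of expected counts per gene (36904 IDs), of which 8.99% of values are not whole (tolerance 1e-06), and these were rounded before testing. Of its columns, 55 match no sample used here and were left out. Library totals were 19.5 to 81.6 in units of 1e+06 counts. Positions (35338 IDs) came from GENCODE M21, and symbols (35298 IDs) from a separate reference list of gene names.

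Genes were filtered with filterByExpr (minimum count 10, minimum total 15), scaled by TMM and tested with edgeR 4.0.16 (R 4.3.3) with estimateDisp, glmQLFit with robust fitting and glmQLFTest, 1 mean per group over 77 replicates and Benjamini-Hochberg adjustment at 0.05. The label M28 was read as 28 months. The SE is the absolute log2 fold change over the square root of F. Mean log2 CPM used a prior count of 2, and marker sums are CPM of the library total. Marrow-rich and skin-rich mean over 100 CPM of the marker list, and the sex check used 10 CPM. The 2 libraries of 12-month females that share an animal tag were summed, and no other pair looked like a repeated library (lowest chi-square per gene 16.6 over 3003 pairs).

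The members, gene lists and limits were chosen with earlier results of these data known. Named genes are the members, per comparison up to 4 called genes with the smallest p in each role group or else the single smallest, and up to 5 called genes from each list of other pathway genes; members named beyond these in the account of single animals, in the ranges of other members and in the class II helper genes were chosen after their values were seen. Same-numbered replicates were checked for pairing: their deviations from group means correlated at -0.176 to 0.173, and no comparison had every pair over 0.1, so no block entered the fit. Alternatives were RLE factors, no filter, DESeq2 1.42.0, offsets for transcript length and GC (97.5% of tested genes had both; spline with 5 degrees of freedom), the replicate block, only the compared groups, and leaving out marrow-rich, sex-mismatched or all libraries that stood apart, or each library in turn. Leave-one-out fits kept the genes and dispersion trend of the full fit.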

Additional observations from a re-analysis of the deposited data

Results flagged for a closer look

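Of 90 sets of mean log2 CPM (a role group or all members, in groups of 4 to 10 replicates), 10 had a highest or lowest replicate far from the next one. For a single set chance gives about 1 in 20. The sets overlap, since role groups share libraries and make up the 47 genes, so the 10 cannot be read as a surplus over chance. In 20-month males, male 2 was highest over all 47 genes at 3.20, against 2.61 in the next male, and over the class I chains at 6.73, against 6.18. In 20-month females, female 5 was highest in peptide loading at 4.67 (next 3.92), in the immunoproteasome at 3.45 (next 2.53) and in the guanosine triphosphatases at 3.58 (next 2.60). Among batch 2 control males of 28 months, male 7 was highest in the transcription factors at 3.94 (next 3.17) and in the effectors at 2.77 (next 1.81). In 6-month males, male 1 was highest in the effectors at 2.10 (next 1.22), and its macrophage markers, at 447 CPM, were the highest sum of its group. The transactivators were lowest in batch 2 female 7 of 28 months at -0.48 (next 0.42) and in 12-month male 5 at -0.89 (next 0.01).

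The 28 to 6 month change of Socs3, which is off the list of 47, differed between the sexes by -3.50 on the log2 scale, males minus females (adjusted p = 0.0387, edgeR interaction). Without the marrow-rich libraries 0 of the 28 interferon signalling genes passed this test by edgeR, with the lowest value at -3.76.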

How the results depend on the processing

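For members called (19 higher with all libraries), 28-month over 6-month females gave 12 with length and GC offsets, 12 with the replicate block, 5 without marrow-rich libraries, 0 without all libraries that stood apart and 0 with only the compared groups, and 11 to 25 leaving out single libraries. Males at these ages (5) gave 2 with no filter, 1 with offsets, 0 with the replicate block and 2 to 4 leaving out single libraries. At 20 over 6 months, females (10) gave 4 with offsets and 8 to 12 leaving out single libraries, and males (14) 12 to 15. At 28 over 20 months, females (17) gave 6 with offsets, 10 with the replicate block, 7 without marrow-rich libraries, 6 without all that stood apart and 9 to 25 leaving out single libraries, and males (4) gave 2 with RLE factors, 1 with no filter, 1 with offsets, 0 with the replicate block, 8 with only the compared groups and 1 to 4 leaving out single libraries. At 12 over 6 months, males (0) gave 2 without sex-mismatched libraries, 4 without all that stood apart, 2 with only the compared groups and 0 to 3 leaving out single libraries, and females 0 to 0. Males against females gave 6 at 28 months and 1 at 20 months with only the compared groups, and 0 to 4 and 0 to 0 leaving out single libraries. The interaction gave 1 with DESeq2, 1 without sex-mismatched libraries, 1 without all that stood apart and 0 to 0 leaving out single libraries, and CaAKG 0 to 0. In 28-month over 20-month females, H2-D1 and Psmb9 were at -0.0588 and -0.0703 without all libraries that stood apart, against 0.63 and 0.90. The causes were not tested, beyond fewer libraries in those that leave some out. Shares over all genes are given only for the fit with all libraries and the refit without marrow-rich ones. Counts from the other settings are therefore not set against a background.

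Leaving out single libraries aside, 82 counts were within 1.5 times the count with all libraries and 26 were not. A count of 0 against 0 was taken as within. Comparisons with no called member therefore add to the 82 without showing that called genes hold. Replicate numbers did not pair samples (correlations -0.176 to 0.173). In the comparisons of 28 with 6 or 20 months in batch 1 no numbers were shared. Why calls were lost there under the replicate block was not tested. Group sizes of 4 to 12 and low levels, as of Mx1, Ciita and Zbp1, limit what could be called.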
